A study of Mus musculus with 6 samples.

Results

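In sorted mouse mesoderm, 6 genes of the forkhead family of transcription factors that act in mesoderm, several of them known to respond to Hedgehog signals, were read: Foxf1, Foxf2, Foxc1, Foxc2, Foxl1 and Foxd1. They were taken by gene symbol, and all 6 had a row in the counts table, among 44 forkhead genes and 24975 genes in all. The study sequenced RNA of mesoderm at embryonic day 7.5 in 3 Gli3R and 3 control libraries, 1 of each from each of 3 litters, with 1000 cells per library. Gli3R embryos had the genotype Mesp1-Cre/+;R26-Gli3R-IRES-Venus/+, so that cells with a history of Mesp1-Cre made Gli3R, the repressor that Gli3, a transcription factor of the Hedgehog pathway, can give rise to, together with the fluorescent protein Venus. Control embryos had the genotype Mesp1-Cre/+;R26-tdTomato/+, and both groups thus carried Mesp1-Cre, a recombinase expressed under the nascent mesoderm gene Mesp1. The file header names the Gli3R libraries as sorted on Venus and the control libraries as sorted on tdTomato. Gli3R, the reporter and the sort differed together in every litter, and their effects cannot be told apart. Embryos were pooled with their littermates, and the number in a pool is not given in the sources used here.

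Forkhead proteins bind DNA through a conserved winged-helix domain, the forkhead box. Hedgehog ligands act through the receptor Ptch1 and the membrane protein Smo on Gli factors, and Gli3 above all is cleaved to a repressor when the signal is absent. Foxf1 and Foxf2 act in the lateral plate and its splanchnic layer, and Foxf1 also acts in the extraembryonic mesoderm and in blood vessel formation. Foxc1 and Foxc2 act in the paraxial mesoderm that forms the somites and in vessels, Foxl1 in the mesenchyme of the gut, and Foxd1 in the stroma of the kidney.

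The members are close enough in sequence that it mattered whether reads could be assigned to one of them. In the GENCODE M21 transcripts, Foxf1 and Foxf2 shared at most 41 bases in a row and Foxc1 and Foxc2 at most 53. Both runs lie wholly in coding sequence and are printed to show the extent of the identity.
Foxf1 and Foxf2: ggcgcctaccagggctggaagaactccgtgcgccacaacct
Foxc1 and Foxc2: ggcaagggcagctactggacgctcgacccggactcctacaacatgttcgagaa
Of all stretches of 50 bases, 4 of 5795 in the Foxc1 transcript and 4 of 2676 in the Foxc2 transcript occurred in another member, and 0 did in the other 4 members. The read length is not given in the sources used here.

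Foxf2 and Foxc1 lie side by side on chromosome 13, and their promoters are printed with each CpG dinucleotide in capitals, 250 bases before to 50 after the start of the gene. The windows are from RefSeq (GRCm38.p6), on the plus strand, at chr13:31625566-31625865 for Foxf2 and chr13:31806396-31806695 for Foxc1.
Foxf2: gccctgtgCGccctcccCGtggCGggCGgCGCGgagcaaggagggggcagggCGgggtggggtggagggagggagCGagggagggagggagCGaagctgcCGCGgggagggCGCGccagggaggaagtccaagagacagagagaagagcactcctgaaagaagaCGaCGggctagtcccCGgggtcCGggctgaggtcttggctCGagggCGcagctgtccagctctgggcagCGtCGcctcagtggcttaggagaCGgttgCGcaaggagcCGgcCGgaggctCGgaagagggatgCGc
Foxc1: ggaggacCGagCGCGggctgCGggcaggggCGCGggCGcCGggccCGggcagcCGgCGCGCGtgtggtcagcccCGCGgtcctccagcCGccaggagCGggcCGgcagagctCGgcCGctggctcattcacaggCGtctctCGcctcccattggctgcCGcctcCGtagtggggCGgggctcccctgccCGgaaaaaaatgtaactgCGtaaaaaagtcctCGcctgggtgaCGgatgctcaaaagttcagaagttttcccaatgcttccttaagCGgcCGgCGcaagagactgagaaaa
Foxf2 had 27 CpG dinucleotides and 71.3% G or C, and Foxc1 had 32 and 67.3%. The median window of the table, over 32851 windows, had 7 CpG dinucleotides and 52.7% G or C. Foxd1, the other member of the 3 with a window in that table, had 15 and 57.7%. The Gli consensus GACCACCCA, its core CCACCCA, which it contains, and the forkhead core TGTTTAC were searched on both strands. They were found in 0.253%, 9.3% and 3.65% of all windows and in 0 of these 3.

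Library totals ran from 6592417 to 12635151 counts in the Gli3R libraries and from 5481190 to 10435790 in the control libraries. Of all genes, 11913 were expressed enough to be tested. Control replicate 1, the shallowest library, stood apart on the first principal component, at 39.8 against -19.2 to 2.25 for the others. Of 11 markers of nascent and lateral mesoderm, all 11 had counts enough to be tested, and their summed level ran from 314 to 369 CPM (counts relative to library size, with TMM scaling between libraries) in the Gli3R and from 318 to 349 CPM in the control libraries. Hand1 made up much of these sums, at 142 to 207 CPM in the Gli3R and 118 to 151 CPM in the control libraries. The median log2 fold change of the 11 was -0.48. At an unadjusted p under 0.05, 3 were lower and 2 higher, beside 3.29% and 3.57% of all tested genes. The primitive streak gene T had 8.06, 5.12 and 3.52 CPM in the Gli3R and 43.5, 16.3 and 7.97 CPM in the control replicates. It was called lower with litter as a block, as were 0.151% of all tested genes, and not without the block (edgeR quasi-likelihood, Benjamini-Hochberg adjusted p = 0.0373 and 0.402). Gli3, part of which the transgene carries, averaged 44.4 ± 6.02 CPM in the Gli3R and 29.8 ± 4.29 CPM in the control libraries (SD, n = 3 each), and counts per gene do not separate the transgene from the gene itself.

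The Foxf genes, regulators of the lateral plate, had lower levels in every Gli3R library than in any control library. Foxf1 (Entrez gene 15227) had 9.38, 12 and 12.6 CPM in Gli3R replicates 1, 2 and 3, against 16.7, 16.0 and 18.2 CPM in control replicates 1, 2 and 3. Foxf2 (14238) had 1.08, 0.895 and 1.07 CPM in the Gli3R replicates and 2.78, 2.59 and 2.78 CPM in the control replicates. The spread of Foxf2 within each group was narrower than counting error alone would give at so few counts, and is no measure of precision. These levels rest on 121, 94 and 82 counts of Foxf1 in the Gli3R and 90, 167 and 144 in the control libraries, and on 14, 7 and 7 counts of Foxf2 in the Gli3R and 15, 27 and 22 in the control libraries. In bulk libraries, fewer cells that express a gene and less RNA per cell cannot be told apart.

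The Foxf1 mean was 11.3 ± 1.70 CPM in the Gli3R and 17.0 ± 1.13 CPM in the control libraries (SD, n = 3 each), a log2 fold change of -0.60 ± 0.17 (SE), or 1.51-fold lower. It missed the threshold among the 11913 genes (edgeR quasi-likelihood, Benjamini-Hochberg adjusted p = 0.374). Foxf2 averaged 1.02 ± 0.106 CPM in the Gli3R and 2.72 ± 0.109 CPM in the control libraries (SD, n = 3 each). Its log2 fold change of -1.39 ± 0.32 (SE), 2.63-fold lower, missed it too (edgeR quasi-likelihood, Benjamini-Hochberg adjusted p = 0.211). The low-count filter asked for 1.28 CPM in 3 libraries. Foxf2 reached that in 0 of 3 Gli3R and 3 of 3 control libraries. It thus entered the test through the control group alone and had to differ in that direction. The SE of its log2 fold change was 0.41 without the filter and 0.56 in DESeq2's Wald test.

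**Figure D1:**
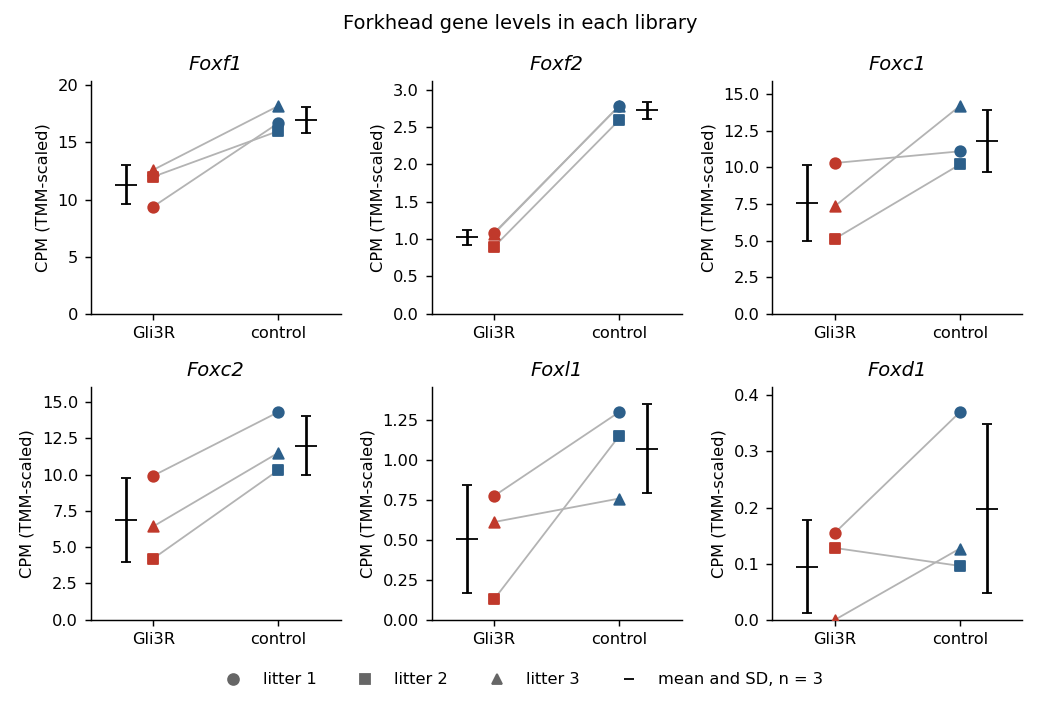
Level of each of the 6 forkhead genes in each library, in TMM-scaled CPM on a linear axis from 0 (points, joined within a litter), with the mean and SD of each group (n = 3). Foxf1, Foxf2 and Foxc2 have no overlap between Gli3R and control libraries, while for Foxc1 the Gli3R library of litter 1, at 10.3 CPM, lies above the control library of litter 2, at 10.2 CPM.

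The Foxc genes, regulators of the paraxial mesoderm, varied more among the Gli3R libraries than the Foxf genes did. Foxc1 (17300) had 10.3, 5.12 and 7.35 CPM in Gli3R replicates 1, 2 and 3, against 11.1, 10.2 and 14.2 CPM in the control replicates. Foxc2 (14234) had 9.92, 4.22 and 6.43 CPM in the Gli3R replicates and 14.3, 10.3 and 11.5 CPM in the control replicates. Gli3R replicate 1 was thus the highest Gli3R library for both Foxc genes and the lowest for Foxf1. The groups overlapped for Foxc1 and did not for Foxc2.

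For Foxc1 the log2 fold change was -0.61 ± 0.26 (SE), with 7.59 ± 2.60 CPM in the Gli3R and 11.8 ± 2.09 CPM in the control libraries (SD, n = 3 each; edgeR quasi-likelihood, Benjamini-Hochberg adjusted p = 0.715). Foxc2 averaged 6.86 ± 2.87 CPM in the Gli3R and 12 ± 2.04 CPM in the control libraries (SD, n = 3 each), with a log2 fold change of -0.76 ± 0.29 (SE; edgeR quasi-likelihood, Benjamini-Hochberg adjusted p = 0.647). Neither passed. Without Gli3R replicate 1, the log2 fold change was -0.93 for Foxc1 and -1.17 for Foxc2, and without Gli3R replicate 2 it was -0.40 for Foxc1 and -0.52 for Foxc2. With litter as a block, Foxc2 stood at -0.85 ± 0.20 and Foxc1 at -0.66 ± 0.22 (SE; edgeR quasi-likelihood, Benjamini-Hochberg adjusted p = 0.209 and 0.412). When the low-count filter was dropped as well, a combination chosen after the data were seen, Foxc2 was called lower (edgeR quasi-likelihood, Benjamini-Hochberg adjusted p = 0.0184), as were 0.662% of 18719 genes.

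Foxl1 and Foxd1 were sparse. Foxl1 (14241), a gut mesenchyme gene in later development, had 10, 1 and 4 counts in Gli3R replicates 1, 2 and 3, or 0.775, 0.128 and 0.612 CPM, against 7, 12 and 6 counts in the control replicates, or 1.3, 1.15 and 0.759 CPM. Gli3R replicate 1 lay above control replicate 3, and the groups overlapped. Summed, 15 counts in the Gli3R and 25 in the control libraries gave a level 1.92-fold lower in Gli3R, with an exact 95% interval of 0.971-fold to 3.91-fold lower that covers counting error only and includes no difference. Foxl1 was under the low-count filter, and without it the edgeR quasi-likelihood test gave a Benjamini-Hochberg adjusted p of 0.899.

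Foxd1 (15229) had 2, 1 and 0 counts in the Gli3R and 2, 1 and 1 in the control libraries. No library exceeded 3 counts. That number, the most a true level could hide behind a count of 0, came to 0.232 to 0.459 CPM in the Gli3R and 0.288 to 0.555 CPM in the control libraries. A difference was not detectable at this depth, and no fold is given.

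Of the 6 members, 4 could be tested, and 0 were called in either direction (edgeR quasi-likelihood, Benjamini-Hochberg adjusted p under 0.05), where 0.134% of all tested genes were called, 0.109% lower and 0.0252% higher. With litter as a block, 0 of the 4 members and 0.227% of all tested genes were called. All 4, Foxf2 with its filter limit among them, had an unadjusted p under 0.05 (0.00150 for Foxf2, 0.00531 for Foxf1, 0.0264 for Foxc2 and 0.0429 for Foxc1), as did 3.29% of all tested genes in the same direction and 3.57% in the other. DESeq2's Wald test called 0 of the 4 (Benjamini-Hochberg adjusted p = 0.429 for Foxf1, 0.540 for Foxf2, 0.572 for Foxc2 and 0.913 for Foxc1). Every Gli3R library below every control library was seen for Foxf1, Foxf2 and Foxc2 and for 6.33% of all tested genes. By p, Foxf2 ranked 84, Foxf1 168, Foxc2 485 and Foxc1 713 of the 11913 genes. The members were picked with earlier results of these libraries known, so the counts describe them and are no support for a shared change.

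Within litters, the 5 members other than Foxd1 were lower in Gli3R in all 3, as were 15.3% of all tested genes. On the log2 CPM scale, the Foxf1 difference was -0.81, -0.41 and -0.53 in litters 1, 2 and 3, and the Foxf2 difference -1.19, -1.32 and -1.21. Foxc1 differed by -0.11, -0.96 and -0.93, so that litter 1 showed almost none of the difference seen in the other two. The Foxc2 difference was -0.51, -1.24 and -0.82, again smallest in litter 1 and largest in litter 2. Litter 1 thus held the largest Foxf1 difference and the smallest Foxc1 and Foxc2 differences. Without both libraries of litter 1, the log2 fold changes were -0.48 for Foxf1, -1.44 for Foxf2, -0.97 for Foxc1 and -1.04 for Foxc2 (edgeR quasi-likelihood, Benjamini-Hochberg adjusted p = 0.491, 0.372, 0.308 and 0.221).

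**Figure D2:**
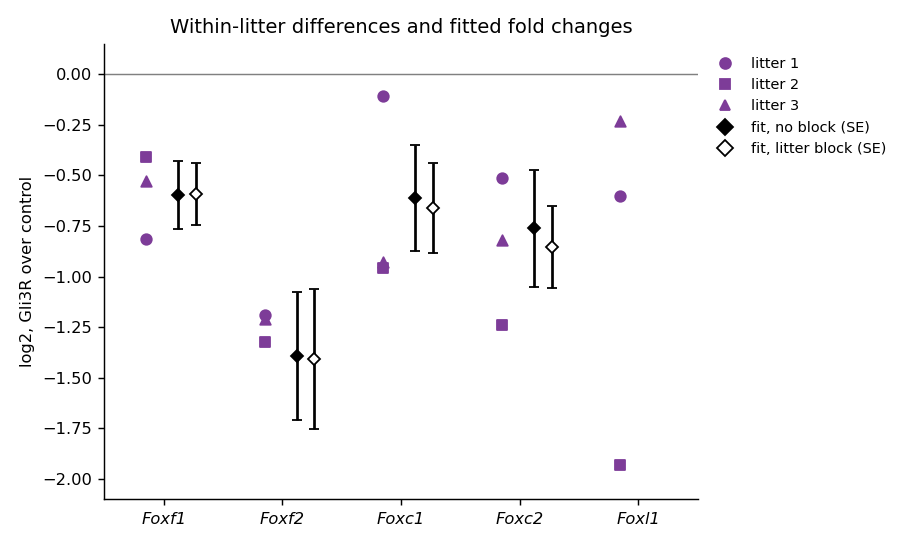
Log2 difference of Gli3R over control within each litter (purple points, log2 CPM with a prior count of 2) and the fitted log2 fold change with its SE, without (filled diamonds) and with (open diamonds) litter as a block; Foxl1 has no fit since it was under the low-count filter. All points lie below 0, the Foxf2 points lie close together from -1.32 to -1.19, and the Foxc1 point of litter 1 lies at -0.11. Foxf2 rests on 7 to 27 counts per library, so the closeness of its points is no measure of precision.

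Whether paralogs differed in their change was read from ratios within a library, which need no scaling between libraries. The log2 ratio of Foxf2 to Foxf1 counts was -2.94, -3.42 and -3.22 in Gli3R replicates 1, 2 and 3, against -2.44, -2.54 and -2.60 in the control replicates. Foxf2 was thus scarcer relative to Foxf1 in every Gli3R library than in any control library. As Foxf2 had entered through the control libraries alone, this ratio carries the same limit and is no independent sign that the paralogs differed. The difference averaged -0.67 on the log2 scale, with the smallest p that 3 against 3 libraries allow (exact permutation test, two-sided, p = 0.1). The ratio of Foxc2 to Foxc1 averaged -0.17 ± 0.11 in the Gli3R and 0.02 ± 0.32 in the control libraries on the log2 scale (SD, n = 3 each; exact permutation test, two-sided, p = 0.5). That of Foxc2 to Foxf1 averaged -0.77 ± 0.78 in the Gli3R and -0.50 ± 0.24 in the control libraries (SD, n = 3 each; exact permutation test, two-sided, p = 0.6), and their difference of -0.27 was 0.07 without Gli3R replicate 2. These 3 ratios were the ones computed, and the Benjamini-Hochberg adjusted p-values were 0.3, 0.6 and 0.6.

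Levels can be set against each other between genes only per transcript length. Per kilobase of the GENCODE M21 transcript, Foxf1 was the most abundant member, at 4.69 ± 0.705 CPM per kilobase in the Gli3R and 7.03 ± 0.467 CPM per kilobase in the control libraries (SD, n = 3 each). Foxc2 came next, with 2.52 ± 1.05 in the Gli3R and 4.41 ± 0.748 in the control libraries, followed by Foxc1 with 1.3 ± 0.446 in the Gli3R and 2.02 ± 0.358 in the control libraries, in the same unit. Foxf2 had 0.431 ± 0.0448 CPM per kilobase in the Gli3R and 1.15 ± 0.0461 CPM per kilobase in the control libraries, and Foxl1 had 0.187 ± 0.124 in the Gli3R and 0.395 ± 0.103 in the control libraries. Foxd1 was last, with 0.0186 ± 0.0163 CPM per kilobase in the Gli3R and 0.0390 ± 0.0297 CPM per kilobase in the control libraries. In the control libraries the lowest value of each gene but the last lay above the highest value of the next. In the Gli3R libraries Foxc2 (1.55 to 3.64) and Foxc1 (0.875 to 1.76) overlapped, and the other neighbours in the order did not.

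The other forkhead genes were set beside the members. Of 38 others, 12 could be tested and 0 were called in either direction (edgeR quasi-likelihood, Benjamini-Hochberg adjusted). At an unadjusted p under 0.05, 1 was lower and 1 higher, beside 3.29% and 3.57% of all tested genes. Their median log2 fold change was -0.02, beside -0.008 for all tested genes. The 4 with the smallest p were Foxo1, a target of insulin signalling (-1.11 ± 0.32), Foxj2 (0.95 ± 0.41), Foxk1 (0.38 ± 0.30) and Foxk2 (0.17 ± 0.17; log2 fold change ± SE). Foxh1, the forkhead partner of Smad proteins in Nodal signalling, had 161 CPM in the Gli3R and 170 CPM in the control libraries and stood at -0.07 ± 0.11.

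The endoderm and node forkhead genes were sparse. Foxa2, which marks endoderm, node and notochord, had 0 counts in the Gli3R and 19 in the control libraries, at least 7.28-fold lower against a floor of 3 counts over the group, or 5.36-fold at the lower end of the exact 95% interval that also counts the error in the control libraries. It was under the filter and did not pass without it (edgeR quasi-likelihood, Benjamini-Hochberg adjusted p = 0.0733). Foxa1 had 3 counts in the Gli3R and 7 in the control libraries, and Foxa3 had 1 in the Gli3R and 5 in the control libraries. Foxd3, an epiblast and neural crest gene, had 1 count in the Gli3R and 0 in the control libraries. Foxj1, the ciliated cell gene of the node, had 0 counts in all 6 libraries, an upper limit of 0.555 CPM in the shallowest.

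**Figure D3:**
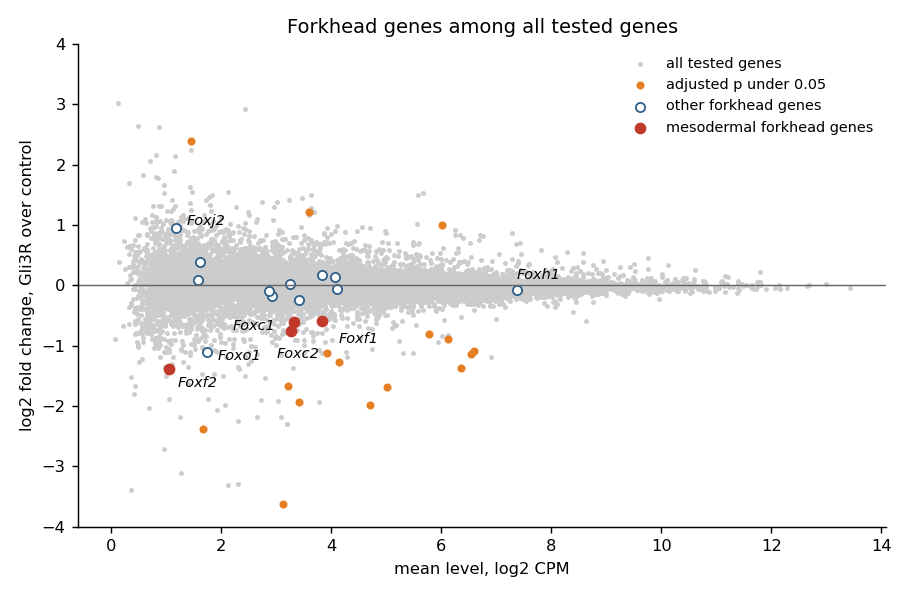
Log2 fold change of Gli3R over control against mean level (log2 CPM) for the 11913 tested genes (grey), the genes called at an adjusted p under 0.05 (orange), the 4 tested members (red) and the 12 other tested forkhead genes (open circles). The 4 members lie between -1.39 and -0.60, below the 0 line, and none is among the orange points.

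Of the members, 5 sit in 2 gene blocks that arose by duplication, with Foxf1, Mthfsd, Foxc2 and Foxl1 in that order on chromosome 8 and Foxq1, Foxf2 and Foxc1 on chromosome 13, and Foxd1 alone elsewhere on chromosome 13. Mthfsd, a folate enzyme-like gene between Foxf1 and Foxc2, had a log2 fold change of -0.10 ± 0.11 (SE), with 992 counts in the Gli3R and 919 in the control libraries. Foxq1, on the far side of Foxf2 from Foxc1, had 4 counts in the Gli3R and 7 in the control libraries and was not tested. Of the 30 genes flanking these places, 5 on each side, 17 could be tested and 0 were called (edgeR quasi-likelihood, Benjamini-Hochberg adjusted). Of the 17, 1, Exoc2 (-0.46 ± 0.16), was lower at an unadjusted p under 0.05, as were 3.29% of all tested genes. The log2 fold changes of the 17 ran from -0.46 to 0.58 with a median of 0.003. The median of the members' neighbours was therefore near 0, while the 4 tested members had negative values. The 17 include genes that flank Foxd1, which was not tested, so that no tested member lies between those genes. The long noncoding RNA Fendrr, which starts near Foxf1, was not analysed here.

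**Figure D4:**
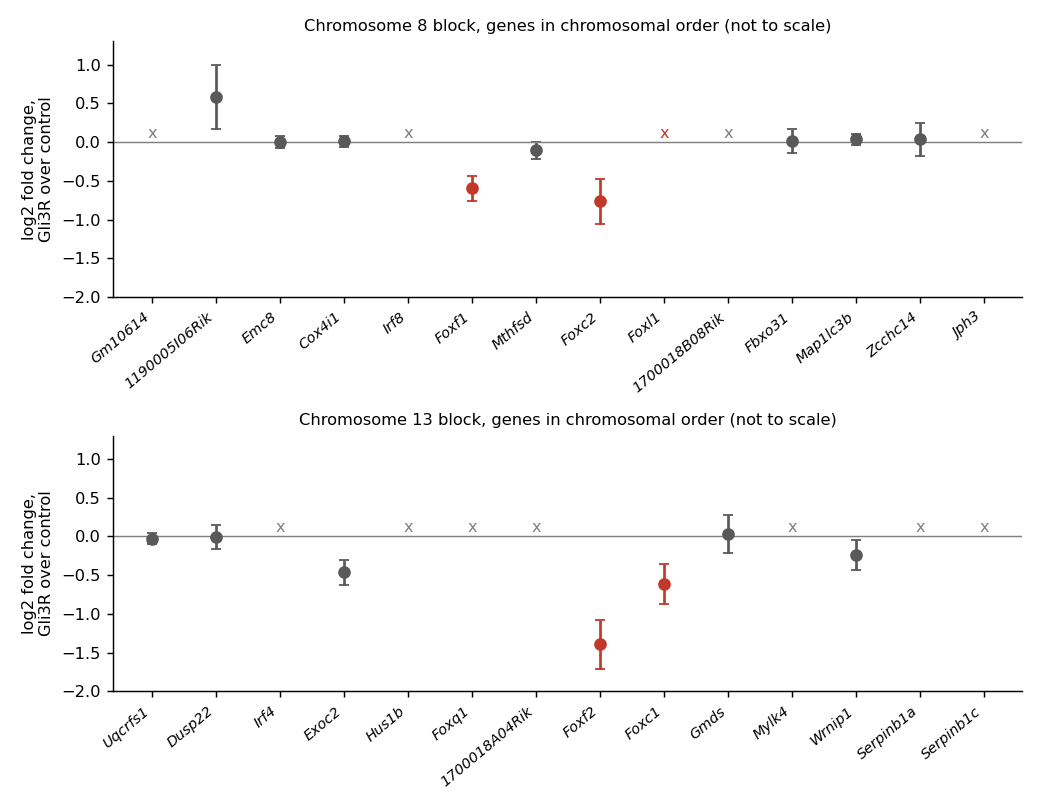
Log2 fold change of Gli3R over control with its SE for the genes of both forkhead blocks and 5 neighbours on each side, in chromosomal order without scale; members are red, and an x marks a gene too sparse to test. Foxf1, Foxc2, Foxf2 and Foxc1 lie at -0.60, -0.76, -1.39 and -0.61, while Mthfsd between Foxf1 and Foxc2 lies at -0.10.

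Genes that mark the tissues in which the members act were read as lists. Direct readouts of Hedgehog signalling were lower in every Gli3R library than in any control library: Ptch1, the receptor gene, had 0.620, 1.02 and 0.766 CPM in the Gli3R and 2.04, 3.65 and 2.91 CPM in the control replicates, and Gli1 had 12 counts in the Gli3R and 44 in the control libraries. Of 7 tested readouts and pathway genes, 0 were called (edgeR quasi-likelihood, Benjamini-Hochberg adjusted), and their median log2 fold change was 0.19. At an unadjusted p under 0.05, 1 was lower, Ptch1, and 2 were higher, Gli3 (0.57 ± 0.15) and the co-receptor gene Cdon (0.83 ± 0.28; log2 fold change ± SE), where 3.29% of all tested genes were lower and 3.57% higher. Ptch1 lay under the filter's 1.28 CPM in every Gli3R library and above it in every control library. Like Foxf2, it thus entered this test through the control group alone and had to differ in that direction. Without the low-count filter, Ptch1 and Hhip, a ligand-binding protein gene with 4 counts in the Gli3R and 40 in the control libraries, were called lower, as were 0.315% of 18719 genes (edgeR quasi-likelihood, Benjamini-Hochberg adjusted p = 0.0425 and 0.0234). The Foxf1 fold, 1.51, was smaller than that of Gli1, which was 4.21-fold lower (exact 95% interval 2.19 to 8.76, counting error only). The difference between these folds was not tested.

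Of 15 tested genes that act with Foxf factors in the lateral plate, 0 were called, 5 had an unadjusted p under 0.05 on the higher side, as did 3.57% of all tested genes, and 1, Osr1, on the lower side, as did 3.29%. The median log2 fold change was -0.01. The 4 with the smallest p were Msx1 (0.82 ± 0.15), Bmp4 (0.68 ± 0.16), Osr1 (-1.37 ± 0.34) and Prrx1 (1.05 ± 0.28; log2 fold change ± SE), so that Foxf1 and Foxf2 shared their sign with Osr1 and not with the other 3. With litter as a block, Msx1 and Bmp4 rose, as did 0.0755% of all tested genes (edgeR quasi-likelihood, Benjamini-Hochberg adjusted p = 0.0121 and 0.0425). The summed level of the list ran from 656 to 872 CPM in the Gli3R and from 514 to 664 CPM in the control libraries. Hand1, Bmp4 and Msx1 made up most of these sums, which thus do not speak for the other genes of the list. Foxf1 and Foxf2 together ran from 10.5 to 13.6 CPM in the Gli3R and from 18.6 to 21.0 CPM in the control libraries.

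Of 14 tested genes that act beside Foxc factors in the paraxial mesoderm, 2 fell, the activin antagonist gene Fst (-1.68 ± 0.16) and the Notch ligand gene Dll3 (-1.67 ± 0.21; log2 fold change ± SE; edgeR quasi-likelihood, Benjamini-Hochberg adjusted p = 0.00450 and 0.0234), and 0 rose, where 0.109% of all tested genes fell. Without Gli3R replicate 3 neither passed, with adjusted p = 0.0628 for Fst and 0.106 for Dll3 (edgeR quasi-likelihood). Fst passed without any other single library, at 0.00449 to 0.0365, while Dll3 was also lost without Gli3R replicate 1, Gli3R replicate 2 or control replicate 2, at 0.0788, 0.132 and 0.189 (edgeR quasi-likelihood, adjusted p). At an unadjusted p under 0.05, 9 were lower and 1 higher, beside 3.29% and 3.57% of all tested genes. The higher gene was Pax3, with a log2 fold change of 1.10 ± 0.39 (SE). The median log2 fold change was -1.29, and Ripply2, a segmentation gene, and Dll1, a Notch ligand gene, stood at -3.31 ± 0.51 and -2.18 ± 0.50. The summed level of the list was 268, 174 and 193 CPM in Gli3R replicates 1, 2 and 3, against 480, 420 and 343 CPM in the control replicates. Foxc1 and Foxc2 together had 20.2, 9.34 and 13.8 CPM in the Gli3R and 25.4, 20.4 and 25.7 CPM in the control replicates. Gli3R replicate 1 was the highest Gli3R library for the summed list and for the Foxc genes, and replicate 2 the lowest for both. Aldh1a2, at 116, 45.4 and 55.3 CPM in the Gli3R replicates, and Pdgfra, at 57.6, 53.2 and 59 CPM, made up much of the sums. The sums thus do not speak for the other genes of the list. Dll1 (5.5, 2.17 and 0.612 CPM), Dll3 and Ripply2 were lowest in replicate 3, and Fst in replicate 2. The part of the listed genes' cells in the Foxc levels was not tested.

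Of 12 tested endothelial genes tied to Foxc or Foxf factors in mouse, 0 were called, and 3 had an unadjusted p under 0.05, all on the higher side, as did 3.57% of all tested genes. The 4 with the smallest p were the blood and vessel regulators Tal1 (0.96 ± 0.15) and Etv2 (0.62 ± 0.15), the VEGF receptor gene Kdr (0.43 ± 0.19) and the integrin gene Itgb3 (0.97 ± 0.53; log2 fold change ± SE). The summed level ran from 213 to 235 CPM in the Gli3R and from 141 to 184 CPM in the control libraries, opposite in direction to the levels of the members. Etv2, Kdr and Tal1 made up most of these sums, which thus do not speak for the other genes of the list. The median log2 fold change was 0.38. Of the 12, Mef2c (-0.47 ± 0.32) and Cxcr4 (-0.27 ± 0.19) alone had a negative log2 fold change (± SE). Without control replicate 1, the counts called in the Hedgehog, lateral plate, paraxial and endothelial lists were the same (0, 0, 2 and 0; edgeR quasi-likelihood, Benjamini-Hochberg adjusted).

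Markers of other cells ran from absent, for Elf5, to summed levels above those of nascent and lateral mesoderm, for extraembryonic mesoderm and allantois. The 10 epiblast and ectoderm markers summed to 159, 145 and 154 CPM in Gli3R replicates 1, 2 and 3, against 270, 178 and 152 CPM in the control replicates, with control replicate 1 the highest. Of the 7 tested, 3 were lower and 0 higher at an unadjusted p under 0.05, beside 3.29% and 3.57% of all tested genes. Cdh1, which encodes E-cadherin, was at 0.542, 0.512 and 0.306 CPM in the Gli3R and 7.22, 3.55 and 2.28 CPM in the control replicates. It was called lower with litter as a block, as were 0.151% of all tested genes, and not without the block (edgeR quasi-likelihood, Benjamini-Hochberg adjusted p = 0.0327 and 0.0869). Cdh1 was under the filter's 1.28 CPM in every Gli3R library and above it in every control library. It thus entered the test through the control group alone and had to differ in that direction. The 9 markers of extraembryonic mesoderm and allantois, where Foxf1 is also active, summed to 1580, 2300 and 2440 CPM in the Gli3R and 1190, 1660 and 2190 CPM in the control replicates. Krt18 alone ran from 542 to 895 CPM in the Gli3R and from 390 to 820 CPM in the control libraries. The median log2 fold change of the 9 was 0.31. At an unadjusted p under 0.05, 1 was lower, Cdx2 (log2 fold change -0.56 ± 0.23, SE), and 2 were higher, beside 3.29% and 3.57% of all tested genes. Of the 9 markers, 1 was called higher, Ahnak, as were 0.0252% of all tested genes. Ahnak had 76.6, 91.2 and 88.3 CPM in the Gli3R and 37.6, 42.7 and 47.2 CPM in the control replicates, a log2 fold change of 1.00 ± 0.12 (SE; edgeR quasi-likelihood, Benjamini-Hochberg adjusted p = 0.0172). That call was lost without Gli3R replicate 2, Gli3R replicate 3 or control replicate 2, at adjusted p = 0.118, 0.0826 and 0.154 (edgeR quasi-likelihood). The 6 erythroid markers summed to 637, 199 and 182 CPM in the Gli3R and 350, 416 and 185 CPM in the control replicates, so that Gli3R replicate 1, with the highest Foxc levels of its group, also had the most erythroid transcripts. Endoderm markers summed to 70.1 to 108 CPM in the Gli3R and 65.2 to 105 CPM in the control libraries, and Elf5, which defines extraembryonic ectoderm, was at 0 in all. Their part in the forkhead levels was not tested. Without control replicate 1, Foxf1 stood at -0.61, Foxf2 at -1.38, Foxc1 at -0.64 and Foxc2 at -0.62 (log2 fold change).

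Likeness of pattern was measured as the root mean square difference between 2 genes' log2 CPM, each centred on its mean, over the 6 libraries. Foxc1 and Foxc2 lay 0.22 apart, so that Foxc1 was the gene ranked 10 among all tested genes in likeness to Foxc2, and Foxc2 the gene ranked 20 in likeness to Foxc1. Foxf1 and Foxf2 lay 0.37 apart, which ranked Foxf2 at 5863 in likeness to Foxf1 and Foxf1 at 108 in likeness to Foxf2. The 3 nearest genes were Oaf, Slc35e3 and Nrk for Foxf1 (0.06 to 0.09), Fbxo15, Sms and Pth1r for Foxf2 (0.08 to 0.09), Zfp109, Serpinb9b and Pon3 for Foxc1 (0.09 to 0.17), and Slc44a5, AA543186 and Zfp362 for Foxc2 (0.16 to 0.19). Of these, Sms and Pth1r were called lower, and reads of Sms may be shared with a near-identical copy. The median gene lay 0.37 from Foxf1, 0.65 from Foxf2, 0.49 from Foxc1 and 0.59 from Foxc2. With 6 libraries and low counts, these distances are a description.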

How the data were processed

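RNA of sorted mesoderm was sequenced in 6 libraries (3 Gli3R, 3 control). SMARTer Ultra Low reagents gave the cDNA and Nextera XT the libraries, per the labels' protocols; as general knowledge, these keep no strand and tag no molecules, so amplified copies count as reads. The authors deposited raw counts per Entrez gene ID, unnormalized. Without giving roles, the submitters' processing notes list the build mm9 and the tools edgeR, featureCounts, Subread 1.4.6, TopHat2 2.0.14 and FastQC. The annotation, like the counting options for strand and multiply matching reads, is not given in the sources used here; counts of overlapping genes are thus uncertain. The reference tables are of GRCm38 and served only for names, gene order, transcript lengths and RefSeq or GENCODE sequences.

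Counts were analysed in R 4.3.3 with edgeR 4.0.16: filterByExpr (minimum count 10), TMM scaling, the quasi-likelihood test over all genes passing, two-sided, Benjamini-Hochberg adjustment and a threshold of 0.05, without a litter term. Alternatives were litter as a block, other scalings and filters, DESeq2, another prior count and leaving out a library or litter 1. Standard errors are the log2 fold change over the root of its F statistic. Log2 CPM and ratios use a prior count of 2. One count stood for 0.0775 to 0.185 CPM; intervals cover counting error only. Scaling choices moved the median of all genes by less than 0.1 (-0.00786 with TMM, -0.00277 with DESeq2 1.42.0 size factors, 0.00357 with library size alone). The fit was checked on simulated data.

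Per the labels, the replicate number marks a shared litter, and the pairing rests on that. As a check, the 2 libraries of a litter had correlated deviations from their group means (r = 0.168 in litter 1, 0.187 in litter 2, 0.0755 in litter 3), where libraries of different litters gave r from -0.269 to 0.162. Chi-square per gene between libraries ran from 3.30 to 10.9, above sampling noise, so none is a copy of another. P-values measure the spread between pools.

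The members and lists were chosen with earlier results of these data known. Named are the members, up to 4 tested genes with the smallest p of each list, the endoderm, node and epiblast forkhead genes, neighbouring genes where called or antisense, and the 3 genes nearest in pattern to each tested member. Exoc2, Gli1, Hhip, Mthfsd, Foxq1, Hand1, T, Cdh1, Ahnak, Cdx2 and Krt18 fall outside this rule and were chosen after their values were seen. The same holds for Pax3, Aldh1a2, Pdgfra, Mef2c and Cxcr4.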

Additional observations from a re-analysis of the deposited data

How the results depend on the processing

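Foxf1, Foxf2, Foxc1 and Foxc2 kept a negative log2 fold change under each of the 14 alternatives run for Foxf1, Foxc1 and Foxc2 and the 13 for Foxf2, which could not be tested at 5 CPM in 3 libraries. The values ran from -0.67 to -0.47 for Foxf1, from -1.45 to -1.32 for Foxf2, from -0.97 to -0.40 for Foxc1 and from -1.17 to -0.52 for Foxc2. One call was gained: Foxc2 passed with the replicate block and no low-count filter, at -0.84 (edgeR quasi-likelihood, Benjamini-Hochberg adjusted p = 0.0184, against 0.209 to 0.995 under its other alternatives), a combination chosen after the data were seen; the cause was not tested. Pairing by the litter block alone changed no call of a member: Foxf1 stood at -0.59, Foxf2 at -1.41, Foxc1 at -0.66 and Foxc2 at -0.85. The Foxl1 value of -0.94 ran from -1.60 (without Gli3R replicate 1) to -0.55 (without Gli3R replicate 2). No fold, and so no alternative, was computed for Foxd1. The Foxf2 to Foxf1 ratio difference ran from -0.79 to -0.55 when a library was left out and stood at -0.78 with a prior count of 0.5. The Foxc2 to Foxc1 difference of -0.19 was -0.03 without control replicate 1. The Foxc2 to Foxf1 difference of -0.27 was 0.07 without Gli3R replicate 2. Within litters, the 3 ratio differences had the same means, -0.67, -0.19 and -0.27, which the balanced design fixes in advance.

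The counts of all genes called moved more. Against 3 higher and 13 lower, the litter block gave 9 and 18, library size alone 5 and 14, no low-count filter 49 and 59, at least 5 CPM in 3 libraries 1 and 12, DESeq2's Wald test 38 and 49, leaving out litter 1 5 and 22, and the block with no filter 160 and 124. Leaving out a library gave 0 to 2 higher and 0 to 16 lower. Without Gli3R replicate 3, 0 were called in either direction by the edgeR quasi-likelihood test, with 346 higher and 313 lower at an unadjusted p under 0.05; 0 were called higher without Gli3R replicate 2 (323) or control replicate 2 (294). Without Gli3R replicates 1 and 2 in turn 8 and 5 were lower, and without control replicates 2 and 3 in turn 6 each. Depth limits Foxf2, Foxl1 and Foxd1 most, at 28, 15 and 3 counts over the Gli3R libraries and 64, 25 and 4 over the control libraries.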
